A study of Rattus norvegicus with 24 samples.

Results

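The subunits of the mitochondrial respiratory chain and of ATP synthase were followed through injury and recovery of the rat kidney. Members were the detected array probes whose gene symbol began with the letters used for subunits of complexes I to V (Ndufa, Ndufb, Ndufc, Ndufs, Ndufv, Sdha to Sdhd, Uqcr, Cox4 to Cox8 and Atp5). Of 22523 probes, 71 had such a symbol and 68 of these were detected, among 14390 detected probes in all. Of the 68, 58 were subunits: 28 of complex I, 4 of complex II, 4 of complex III, 9 of complex IV and 13 of complex V. The other 10 share only the letters: Ndufaf1 to Ndufaf7, Sdhaf2 and Sdhaf3 are assembly factors, and Cox7a2l is a factor of supercomplex assembly. These 10 were counted apart. Ndufs4, Ndufb4 and Cox8c were detected on 0 arrays. Several subunits, Cox4i2, Cox7a2 and Uqcrc2 among them, have no probe under that symbol and were not analysed here.

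Wistar rats, 3 months old, supplied the kidneys, and cortex and medulla were measured apart. The injured groups had 20 min of ischemia of both kidneys and then 6, 24 or 120 h of reperfusion, and the sham groups had the operation without ischemia, as labelled. Each of the 8 groups, a region at a time point or in sham rats, had 3 arrays, 24 in all. The labels do not say whether the 3 arrays of a group came from separate animals, so p-values measure the spread between these arrays, which may be technical.

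The respiratory chain moves electrons from NADH (through complex I) and from succinate (through complex II) to complexes III and IV, and complex V (ATP synthase) uses the proton gradient to make ATP. Except for complex II, each complex also holds subunits encoded in mitochondrial DNA, which these probes do not measure. Tubule cells of the kidney depend on oxidative ATP production, most of all in the proximal tubule and the thick ascending limb, and both lose ATP during ischemia. Values are normalized log2 intensities, so a difference of 1 is a doubling of signal. A member is called changed where limma's moderated test gave a Benjamini-Hochberg adjusted p under 0.05 over the 14390 probes.

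Between 11173 and 12710 probes were detected per array. Proximal tubule markers (13 of 15 genes detected) lay at a summed intensity of 78243 to 153761 in sham medulla, against 151118 to 167012 in sham cortex. Thick ascending limb markers (6 of 8 detected) lay at 44799 to 64794 in sham medulla, against 26967 to 52835 in sham cortex. Sham medulla array 1 lay closer to the sham cortex arrays (mean absolute log2 difference 0.278) than to the other sham medulla arrays (0.397). On several arrays most subunits lay below the other arrays of the group, furthest on 2 cortex arrays. On sham cortex array 1, 48 of 58 subunits were below the mean of the other 2 arrays, with a median difference of -0.74. On cortex 6 h array 3, 52 of 58 were below, with a median of -0.65. Probes for cytosolic ribosomal proteins shifted with them (68 probes, medians of -0.69 and -0.55), as did mitochondrial ribosomal proteins (57 probes, -0.81 and -0.83). The 557 other probes of like intensity did not (medians of 0.06 and 0.01). Quantile normalization gives all arrays the same distribution, which holds the median of so broad a set near 0. These medians therefore cannot show whether the shift was confined to the named gene groups. Like counts with smaller medians occurred on medulla 6 h array 3 (52 of 58, -0.33) and sham medulla array 1 (48 of 58, -0.18), among others. Medians on these medulla arrays were 0.02 and -0.03 for cytosolic and -0.25 and 0.15 for mitochondrial ribosomal proteins. The part of these shifts in the results was not tested. The cortex counts and medians, and the calls that changed, are also given without both named cortex arrays. These arrays were picked because the members themselves lay low on them. Leaving them out lowers the pooled spread for these probes, so calls gained or kept in that fit are no independent support.

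**Figure D1:**
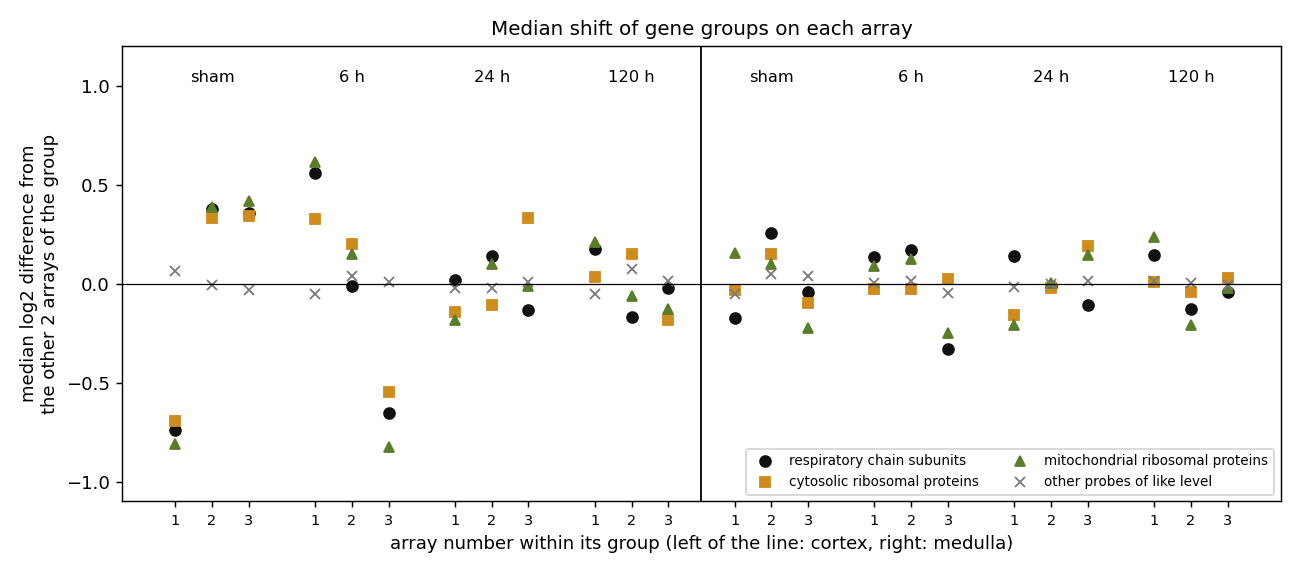
Median log2 difference of each array from the other 2 arrays of its group (y axis) for 58 respiratory chain subunits (circles), 68 cytosolic ribosomal protein probes (squares), 57 mitochondrial ribosomal protein probes (triangles) and 557 other probes of like level (crosses), by array number (x axis), with cortex left of the line. Sham cortex array 1 and cortex 6 h array 3 had subunit medians of -0.74 and -0.65 while the crosses, which quantile normalization holds near 0, stayed there.

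Most subunits were not called changed after ischemia. In the medulla, 4 of 58 subunits fell and 1 rose at 6 h, 7 fell and 0 rose at 24 h, and 1 fell and 0 rose at 120 h. In the cortex, 0 fell and 1 rose at 6 h, 3 fell and 5 rose at 24 h, and 0 were called at 120 h. Sdha, the flavoprotein of complex II, and Ndufb8, an accessory subunit of complex I, were each called lower in 3 of the 6 comparisons with sham, more often than any other subunit. Over those 6 comparisons, 45 of 58 subunits were never called, 8 were called only lower and 5 only higher, and 0 in both directions. Because whole tissue was measured, fewer cells of a type and less RNA per cell cannot be told apart.

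With all arrays in the fit, the members' share of calls was below that of all probes. Of all detected probes, 17.3% were called higher and 16.6% lower in the medulla at 6 h, 17.2% higher and 15.5% lower at 24 h, and 7.69% higher and 6.88% lower at 120 h. Of the 68 members, 4 were called higher and 4 lower at 6 h, 2 higher and 7 lower at 24 h, and 0 higher and 1 lower at 120 h. In the cortex, 8.87% of all probes were called higher and 10.8% lower at 6 h, 12.6% higher and 13.6% lower at 24 h, and 2.45% higher and 3.20% lower at 120 h. The members called there were 3 higher and 1 lower at 6 h, 7 higher and 4 lower at 24 h, and 0 at 120 h, where 1 member had an unadjusted p under 0.05. In the medulla the differences of the members were also small: 77.9% of the 68 lay within 0.5 of sham at 6 h, against 57.5% of all probes.

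**Figure D2:**
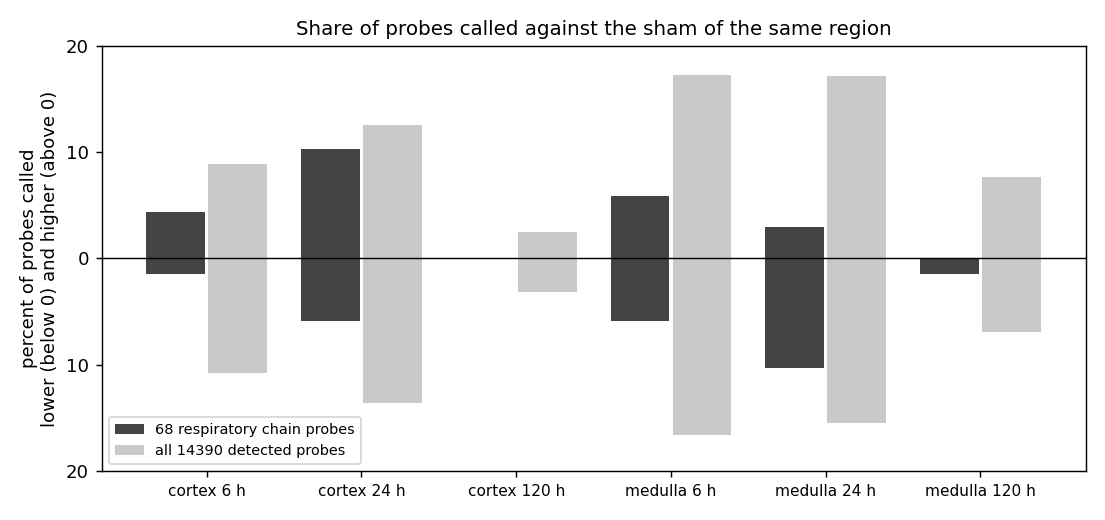
Percent of probes called higher (above 0) and lower (below 0) than the sham of the same region (y axis) at each time (x axis), for the 68 respiratory chain members (dark bars) and all 14390 detected probes (light bars). The dark bars are shorter than the light ones in all 6 comparisons, as in the medulla at 6 h, where 4 members were called higher and 4 lower.

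The median difference of the 58 subunits from sham was small in each region. In the medulla it was -0.09 at 6 h, -0.17 at 24 h and -0.21 at 120 h, while the median of all probes was 0.04, 0.03 and -0.004. Leaving out 1 array moved the median over all 68 members, which was -0.07, -0.13 and -0.20, by over 1.5 times. It then lay between -0.15 (without 6 h array 2) and -0.007 (without 6 h array 3) at 6 h, between -0.25 (without sham array 1) and -0.05 (without sham array 2) at 24 h, and between -0.28 (without 120 h array 1) and -0.11 (without sham array 2) at 120 h. With median scaling it was 0.003 at 6 h, with 34 of 68 members above 0. At 120 h, 52 of the 58 subunits lay below sham medulla, 25 of 28 in complex I and 12 of 13 in complex V, yet 1 subunit was called. In the cortex the subunit median was -0.01, 0.02 and 0.10 at 6, 24 and 120 h. Without the 2 cortex arrays named above it was -0.001, -0.18 and -0.13, so its direction at 24 and 120 h changed when they were left out. The count called in the cortex at 24 h moved with it, to 2 subunits higher and 8 lower without both arrays. Of the 68 members 2 were then called higher and 9 lower, while 9.39% of all probes were called higher and 11.1% lower, so the lower calls were no longer fewer than the share of all probes. Ndufb2 (-0.79), Ndufa1 (-0.60), Cox7b (-0.68), Ndufa8 (-1.04) and Ndufb6 (-1.04) were called lower in that fit and not with all arrays (limma adjusted p = 0.0169 to 0.0336). At 6 h without both arrays, 4 members were called higher and 4 lower, against 7.82% and 10.6% of all probes. Of these, Ndufb8, Sdha and Ndufb11 (-0.73, adjusted p = 0.041) were lower and Atp5pd (0.69, adjusted p = 0.019) and Atp5mg (0.45, adjusted p = 0.0437) higher without having been called with all arrays. Ndufaf4 at 6 h and Ndufaf1 at 24 h lost their calls.

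**Figure D3:**
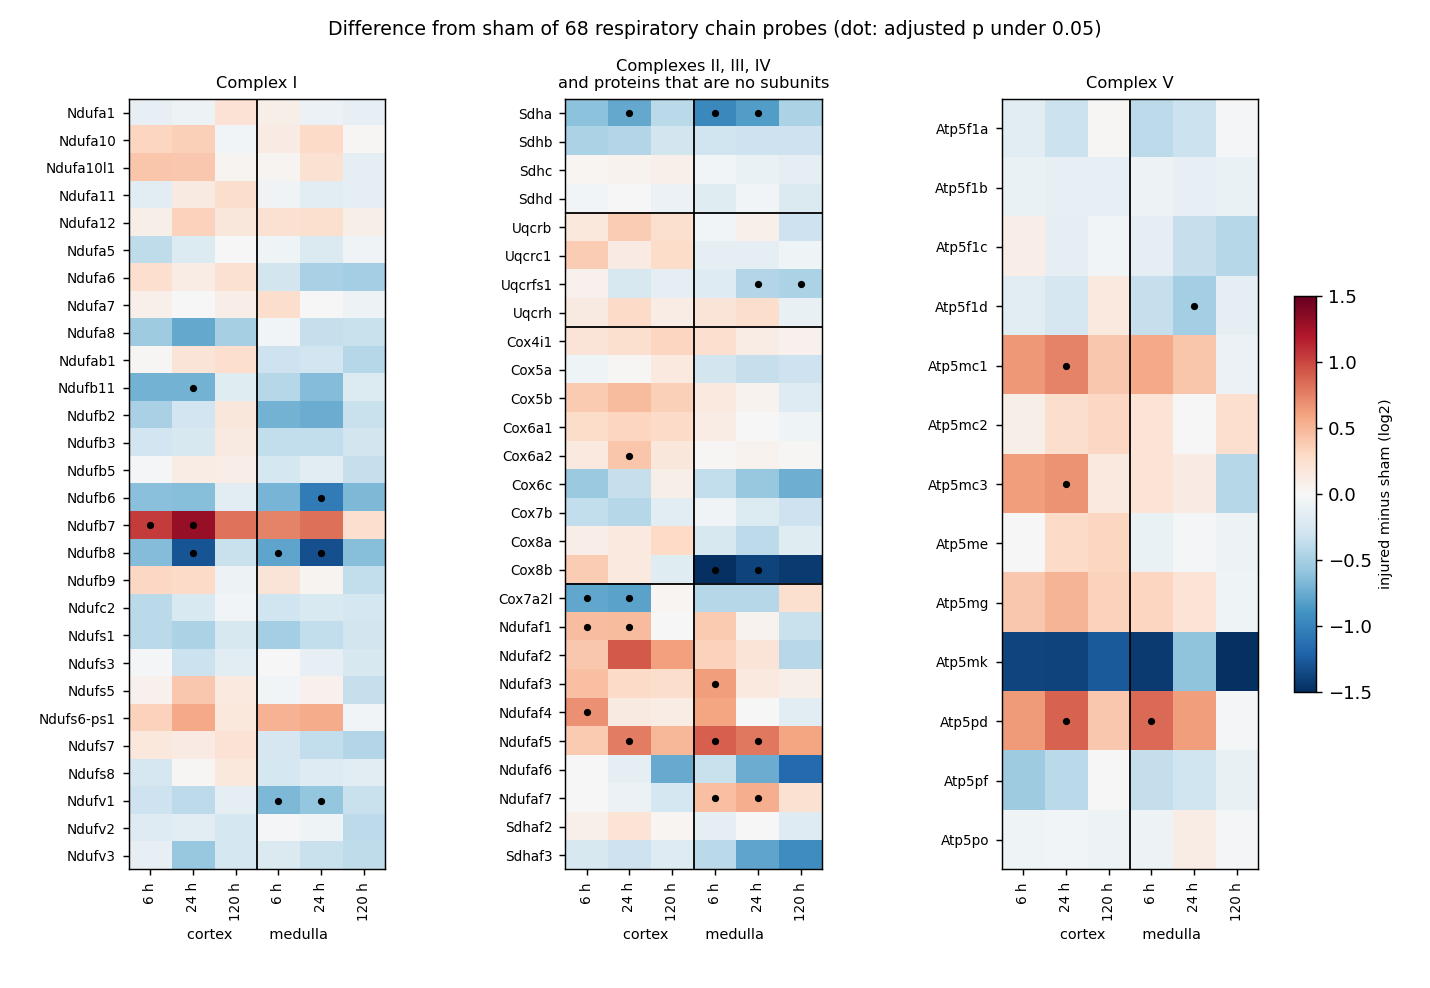
Log2 difference of each of 68 members from the sham of the same region (colour, red higher and blue lower, drawn to 1.5 either way) at 6, 24 and 120 h in cortex (left of each panel's line) and medulla (right), in panels by complex, with a dot where the adjusted p was under 0.05. Dots on Sdha and Ndufb8 recur in both regions, and Atp5mk is mostly deep blue without any dot.

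Among complex I subunits, the dots sit on Ndufb6, Ndufb7, Ndufb8, Ndufb11 and Ndufv1, and Sdha carries those of complex II. The promoters of 4 of these and of the assembly factor Ndufaf5 are shown because the members moved in opposite directions after ischemia: Sdha, Ndufb8 and Ndufv1 fell, and Ndufb7 and Ndufaf5 rose. The letters are the 250 bases before the gene start in RefSeq (build GRCr8), 5′ to 3′ on the gene's strand. Capitals mark matches, on either strand, to the core letters of nuclear respiratory factor 1 (NRF1, GCGCANGCG), of ETS factors such as GABP (CCGGAAG), of YY1 (ATGGCGG) or of an estrogen-related receptor (ERR) element (AAGGTCA). Matches on the 2 strands can overlap and were counted as separate matches.
Sdha (chr1:30764303-30764552, plus strand): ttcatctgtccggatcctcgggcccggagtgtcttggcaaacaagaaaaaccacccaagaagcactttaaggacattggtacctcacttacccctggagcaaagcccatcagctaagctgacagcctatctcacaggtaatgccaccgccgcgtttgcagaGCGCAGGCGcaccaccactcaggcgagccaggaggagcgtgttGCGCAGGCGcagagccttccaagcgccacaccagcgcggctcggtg
Ndufb8 (chr1:253362937-253363186, minus strand): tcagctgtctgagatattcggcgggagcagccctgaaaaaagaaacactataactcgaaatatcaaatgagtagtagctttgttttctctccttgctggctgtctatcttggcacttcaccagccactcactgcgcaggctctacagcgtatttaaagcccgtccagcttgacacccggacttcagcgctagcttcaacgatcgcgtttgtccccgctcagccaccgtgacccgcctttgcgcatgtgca
Ndufv1 (chr1:210734892-210735141, minus strand): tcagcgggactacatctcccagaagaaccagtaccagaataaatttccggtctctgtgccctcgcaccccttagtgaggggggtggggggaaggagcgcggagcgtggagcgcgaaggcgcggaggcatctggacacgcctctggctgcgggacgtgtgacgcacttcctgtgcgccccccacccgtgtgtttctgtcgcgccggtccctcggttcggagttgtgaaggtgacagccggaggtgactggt
Ndufb7 (chr19:41477292-41477541, minus strand): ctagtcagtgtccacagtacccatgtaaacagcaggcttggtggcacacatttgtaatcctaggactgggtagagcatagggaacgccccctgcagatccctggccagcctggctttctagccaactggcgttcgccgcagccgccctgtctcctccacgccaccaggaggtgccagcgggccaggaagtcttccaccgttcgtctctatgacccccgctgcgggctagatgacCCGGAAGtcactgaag
Ndufaf5 (chr3:147961362-147961611, plus strand): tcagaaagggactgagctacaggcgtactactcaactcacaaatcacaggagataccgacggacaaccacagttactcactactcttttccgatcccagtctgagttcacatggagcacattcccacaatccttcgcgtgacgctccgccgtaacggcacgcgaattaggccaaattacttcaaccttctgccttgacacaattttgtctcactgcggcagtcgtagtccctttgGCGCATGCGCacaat
Sdha and Ndufaf5, which moved in opposite directions, both hold NRF1 letters, Ndufb7 holds ETS letters, and neither Ndufb8 nor Ndufv1 holds any of the 4 motifs in this stretch. RefSeq promoters were matched for 59 of the 68 members. Over the whole RefSeq window, which also has 50 bases after the start, the NRF1 letters occurred in 30.5% of the 59 member promoters, against 5.8% of all 33469 promoters. The ETS letters occurred in 32.2% of member promoters, against 8.75% of all, the YY1 letters in 22.0%, against 4.8%, and the ERR element in 11.9%, against 4.61%. Of the 9 promoters of members called lower, 2 held NRF1 letters, 0 ETS letters, 0 the ERR element and 1, Ndufb8, YY1 letters in the whole window. Of the 9 of members called higher, 3 held NRF1 letters, 2 ETS letters, 1 the ERR element and 0 YY1 letters. A match is a run of letters, not a measured binding site.

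In complex II, Sdha fell while the other 3 subunits did not pass the test in the main fit. Sdha carries the flavin that takes electrons from succinate. Sdha read 11.64, 11.91 and 11.49 in medulla at 6 h, against 12.72, 12.57 and 12.66 in sham medulla. All 3 injured arrays lay below all 3 sham arrays. The difference was -0.97 ± 0.22 (SE), 1.96-fold lower, with a limma adjusted p of 0.00274. At 24 h in the medulla Sdha read 12.11, 11.84 and 11.47, a difference of -0.84 ± 0.22 from sham medulla (limma adjusted p = 0.00778), again without overlap. At 120 h it read 12.25, 12.23 and 12.06, with a difference of -0.47 that was not called (adjusted p = 0.175, limma).

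In the cortex Sdha read 12.12, 12.05 and 11.81 at 24 h, against 13.15, 12.58 and 12.53 in sham cortex. The difference was -0.76 ± 0.22 (limma adjusted p = 0.0168). Sham cortex array 1, low for most subunits, was the highest of the group for Sdha. Without that array the difference at 24 h was -0.56 and was not called (adjusted p = 0.109), and without both named cortex arrays it was called at the same size (adjusted p = 0.0281). At 6 h in the cortex Sdha read 11.91, 11.75 and 12.76, where array 3 overlapped sham and the difference of -0.62 was not called (adjusted p = 0.0606). Without both named cortex arrays it was -0.73 and was called (adjusted p = 0.0135). Sdhb, the iron-sulfur subunit, lay between -0.48 and -0.27 from sham in the 6 comparisons and was called in 0. In the cortex at 6 h it was called lower with the authors' series values (limma adjusted p = 0.0498). It was also called there with a replicate block (0.0452) and without cortex 6 h array 1 (-0.68, limma adjusted p = 0.0127). Sdhc and Sdhd, the membrane anchors, differed from sham by between -0.21 and 0.07 and were called in 0.

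Complex I showed both directions among its membrane-arm subunits. Ndufb8 read 10.34, 10.54 and 10.63 in cortex at 24 h, against 11.15, 12.01 and 12.23 in sham cortex, and 11.22, 10.98 and 10.92 in medulla at 24 h, against 12.31, 12.42 and 12.35 in sham medulla. In both regions every injured array lay below every sham array. Its differences at 24 h were -1.29 ± 0.26 in the cortex (2.45-fold lower, limma adjusted p = 0.0013) and -1.32 ± 0.26 in the medulla (2.5-fold lower, limma adjusted p = 0.000961). Both calls at 24 h held under every alternative setting tried, leaving out any 1 array included. At 6 h Ndufb8 had fallen in the medulla (-0.79 ± 0.26, limma adjusted p = 0.0245), and in the cortex the difference was -0.66 (adjusted p = 0.0844). Without the 2 cortex arrays it was -0.88 and was called (adjusted p = 0.0326). By 120 h it read 11.59, 11.46 and 11.35 in cortex and 12.14, 11.46 and 11.56 in medulla, with differences of -0.33 and -0.64 from sham, neither called.

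Ndufb6 and Ndufb11, accessory subunits of the same membrane arm, were lower in part of the comparisons. Ndufb6 read 11.37, 10.74 and 10.96 in medulla at 24 h, against 11.92, 12.28 and 12.03 in sham medulla. This difference was -1.05 ± 0.34 (limma adjusted p = 0.0238), with no overlap of arrays. Ndufb11 read 11.96, 11.89 and 12.13 in cortex at 24 h, against 12.11, 13.06 and 12.94 in sham cortex, where array 1 overlapped. Its difference of -0.71 ± 0.26 was called (limma adjusted p = 0.0494) and was -1.01 without sham cortex array 1 (adjusted p = 0.0109).

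Ndufb7, another subunit of that arm, went the other way. It read 12.19, 12.28 and 11.53 in cortex at 24 h, against 9.71, 11.22 and 11.15 in sham cortex, and 12.22, 12.04 and 10.96 in cortex at 6 h. The 24 h arrays lay above all sham arrays, while 1 of the 6 h arrays overlapped them. The differences were 1.31 ± 0.36 at 24 h (limma adjusted p = 0.0108) and 1.04 ± 0.36 at 6 h (limma adjusted p = 0.0465). Sham cortex array 1 gave the lowest reading: without it the differences were 0.82 and 0.55 and neither was called (adjusted p = 0.0886 and 0.297). Without that array and cortex 6 h array 3 together, Ndufb7 was called at both times, with 0.82 at 24 h (adjusted p = 0.0302) and 0.94 at 6 h (adjusted p = 0.0263). In the medulla Ndufb7 read 11.80, 12.23 and 11.98 at 24 h, against 11.03, 11.43 and 11.07 in sham medulla, without overlap, and the difference of 0.82 was not called (adjusted p = 0.0862). Leaving the 2 cortex arrays out of the fit did not change its medulla values but lowered the pooled spread. Ndufb7 was then called in the medulla at 6 h (adjusted p = 0.0163) and at 24 h (adjusted p = 0.00962), which adds no medulla evidence.

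Ndufv1, which binds NADH and the flavin of the matrix arm, fell in the medulla. It read 11.39, 11.52 and 11.20 at 6 h, against 11.90, 12.19 and 12.03 in sham medulla. All 3 injured arrays lay below the sham arrays, with a difference of -0.67 ± 0.17 (limma adjusted p = 0.00434). At 24 h it read 11.74, 11.34 and 11.28, a difference of -0.59 ± 0.17 (limma adjusted p = 0.011). In the cortex at 24 h it read 11.36, 11.23 and 11.23, against 11.73, 11.72 and 11.54 in sham cortex, without overlap, and the difference of -0.39 was not called (adjusted p = 0.0908). Ndufs1, the largest iron-sulfur subunit of the matrix arm, read 11.40, 11.58 and 11.18 in medulla at 6 h, against 11.86, 11.997 and 11.83 in sham medulla, with a difference of -0.51 and an adjusted p of 0.0514. It was called with an offset of 50 (adjusted p = 0.0463), with no background correction (0.0449), with the authors' series values (0.0451), without 6 h array 2 (0.0421) and without the 2 cortex arrays (0.00706). The last of these fits left its medulla values unchanged and adds no medulla evidence. The remaining complex I subunits were called in 0 of the 6 comparisons. Ndufa10 and Ndufa10l1 are similar copies whose probes may share signal, and the probe named Ndufs6-ps1 is listed as a pseudogene, so these 3 are uncertain.

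**Figure D4:**
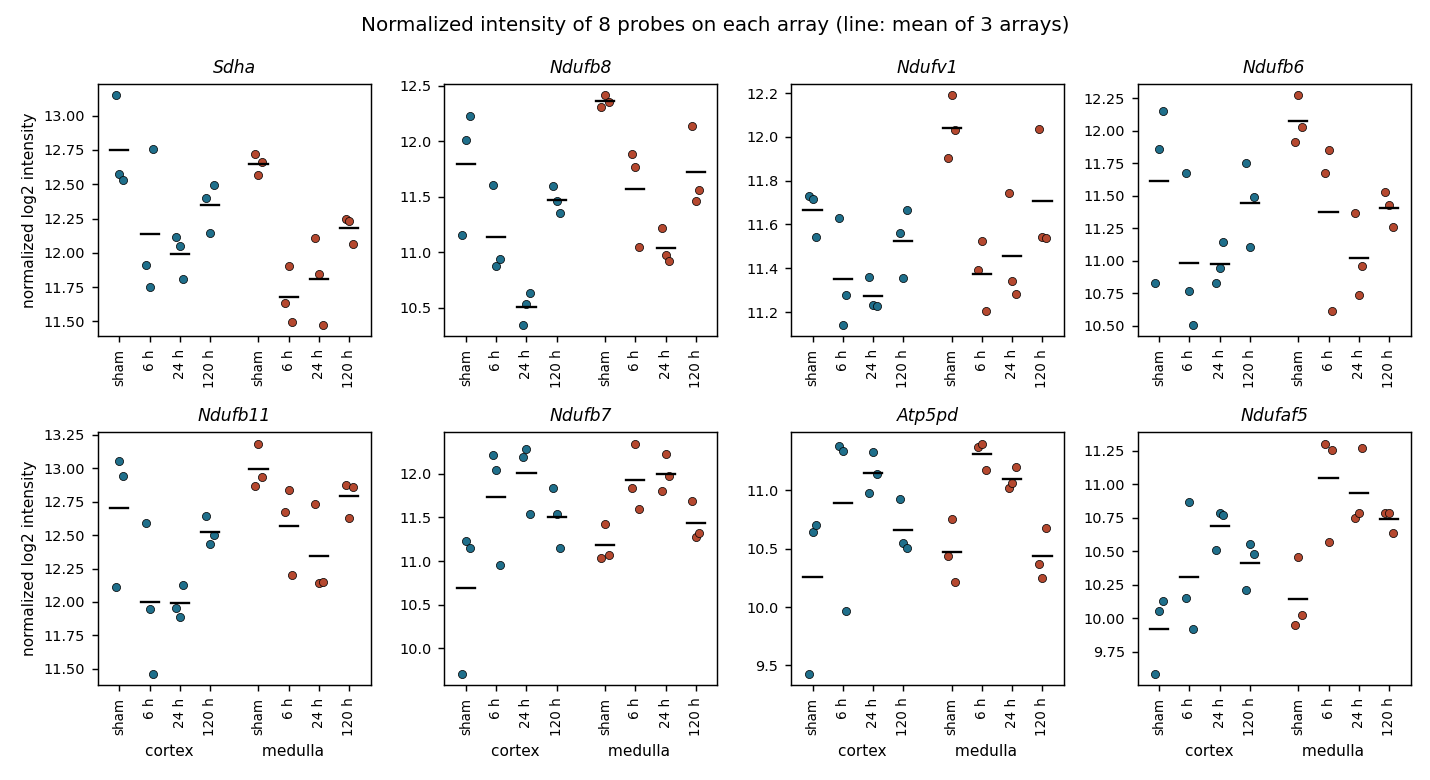
Normalized log2 intensity (y axis) of Sdha, Ndufb8, Ndufv1, Ndufb6, Ndufb11, Ndufb7, Atp5pd and Ndufaf5 on each array (points) with the mean of 3 arrays (line), by time after ischemia (x axis) in cortex (blue) and medulla (red). Ndufb8 at 24 h lies below every sham array of its region, with differences of -1.29 and -1.32, and Ndufaf5 lies above sham in medulla at 6 h with a difference of 0.90.

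Complex III passed the test through 1 of the 4 subunits measured, while others, Uqcrc2 and Cyc1 among them, have no probe under their symbols. Uqcrfs1, the Rieske iron-sulfur protein, read 13.10, 12.73 and 12.91 in medulla at 120 h, against 13.26, 13.51 and 13.40 in sham medulla. The arrays did not overlap, and the difference was -0.48 ± 0.13 (limma adjusted p = 0.0224), the 1 call among the 68 members at 120 h. At 24 h it read 13.19, 12.83 and 12.81, a difference of -0.44 ± 0.13 (limma adjusted p = 0.0152). Uqcrc1, a core subunit, Uqcrb and Uqcrh were called in 0 comparisons in the main fit. In the cortex at 6 h Uqcrc1 was called higher with an offset of 50 (limma adjusted p = 0.0469). It was also called there with no background correction (0.0489) and with the authors' series values (0.0439).

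In complex IV both called members were isoforms detected on only some arrays, and none of the widely expressed subunits measured was called. Cox7a2, Cox7c and Cox6b1 have no probe under their symbols. Cox4i1 averaged 13.48 ± 0.11 in medulla at 24 h and 13.36 ± 0.26 in sham medulla (SD, n = 3 each). Its difference of 0.11 had a 95% interval of -0.31 to 0.54 and was not called. Cox6a1, Cox5a, Cox5b, Cox6c, Cox7b and Cox8a were called in 0 comparisons. Cox6a2, the heart and muscle isoform of Cox6a, was detected on 10 of 24 arrays. It read 5.21, 4.95 and 5.14 in cortex at 24 h, detected on all 3 arrays, against 4.76, 4.65 and 4.64 in sham cortex, where it was not well above background on any. The difference was called (limma adjusted p = 0.0105) and, set against the lowest detected signal of each sham array, was at least 1.17-fold higher.

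Cox8b, in rodents the isoform of heart, skeletal muscle and brown fat, was detected on 9 of 24 arrays. It read 4.66, 4.68 and 4.62 in medulla at 6 h, where no array was above background, against 5.77, 4.64 and 8.10 in sham medulla, where 2 of 3 were. Sham medulla array 3 stood far above the other 2. The differences were -1.52 ± 0.52 at 6 h (limma adjusted p = 0.0302) and -1.38 ± 0.52 at 24 h (limma adjusted p = 0.0477). Without sham medulla array 3 they were -0.55 and -0.42 and neither was called (adjusted p = 0.213 and 0.362). On that same array Ucp1, the uncoupling protein of brown fat, read 10.59, against 5.97 and 5.73 on the other 2 sham medulla arrays. The adipocyte markers, 5 of 7 detected and none of these at background in every array of a group, summed to 7555 to 12754 in medulla at 6 h and 6892 to 13124 at 24 h, against 3337 to 14320 in sham medulla. The part of fat tissue in the Cox8b result was not tested.

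**Figure D5:**
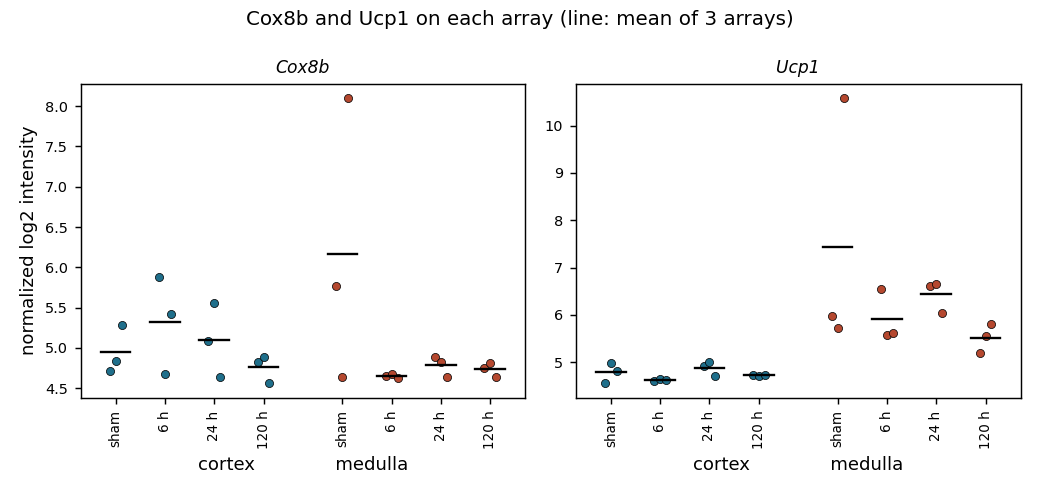
Normalized log2 intensity (y axis) of Cox8b and Ucp1 on each array (points) with the mean of 3 arrays (line), by time after ischemia (x axis) in cortex (blue) and medulla (red). For both genes 1 sham medulla array, with 8.10 for Cox8b and 10.59 for Ucp1, lies far above all other arrays.

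Complex V held 3 of the 5 subunits that rose. Atp5pd, subunit d of the peripheral stalk, read 11.37, 11.40 and 11.18 in medulla at 6 h, against 10.44, 10.75 and 10.22 in sham medulla, with no overlap. Its difference was 0.85 ± 0.32 (1.8-fold, limma adjusted p = 0.048). In the cortex at 24 h it read 10.97, 11.33 and 11.14, against 9.43, 10.64 and 10.70 in sham cortex, a difference of 0.89 ± 0.32 (limma adjusted p = 0.0475). The cortex call was lost without the 2 cortex arrays, as were those of Atp5mc1 and Atp5mc3, described next. The medulla call at 6 h was kept in that fit (limma adjusted p = 0.00054). Its medulla values were unchanged there and the pooled spread was lower, which adds no medulla evidence. Of 14 alternatives, 8 ended the medulla call.

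Atp5mc1, Atp5mc2 and Atp5mc3 are separate genes that encode the same mature subunit c of the membrane ring. Atp5mc1 read 14.03, 14.13 and 13.70 in cortex at 24 h, against 12.54, 13.60 and 13.49 in sham cortex (difference 0.74 ± 0.25, limma adjusted p = 0.0328). Atp5mc3 read 5.98, 5.98 and 6.04, against 5.15, 5.59 and 5.24 in sham cortex (difference 0.67 ± 0.23, limma adjusted p = 0.0381). This probe was dim, so the size of its difference depended on the processing. Over 14 alternatives the difference ranged from 0.27 to 0.81, and 9 of them ended the call. Atp5mc2 differed by 0.27 and was not called.

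Atp5f1d, subunit delta of the central stalk, fell in the medulla at 24 h. It read 12.69, 12.68 and 12.67, against 13.09, 13.28 and 13.19 in sham medulla, without overlap. The difference was -0.51 ± 0.14 (limma adjusted p = 0.0103). Atp5f1a and Atp5f1b, the alpha and beta subunits of the catalytic head, were called in 0 comparisons in the main fit. With median scaling Atp5f1a was called lower in cortex at 24 h (-0.45, limma adjusted p = 0.0498). In medulla it was then called lower at 6 h (-0.50, limma adjusted p = 0.0251) and 24 h (-0.50, limma adjusted p = 0.0246). Atp5f1b was called lower with that scaling in medulla at 120 h (-0.51, limma adjusted p = 0.0256). The probes of Atp5f1a and Atp5f1b, with those of Cox6a1 and Atp5po, lay within 0.5 of the top of the scale (14.78), where a rise could be compressed. Atp5mk, a small membrane subunit, was lower than sham on average in all 6 comparisons, with a difference of -1.71 in medulla at 120 h, and was called in 0. Its arrays spread from 7.88 to 12.22, with a residual SD of 1.61 against a median of 0.29 over the members, so its differences were within the spread between arrays.

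Of the 10 members that are no subunits, 6 were called. Ndufaf5, an assembly factor that modifies a complex I subunit, rose in 3 comparisons. It read 11.30, 10.57 and 11.26 in medulla at 6 h, against 9.95, 10.46 and 10.02 in sham medulla. All injured arrays lay above the sham arrays, by 0.90 ± 0.24 (1.86-fold, limma adjusted p = 0.00685). The differences were 0.79 ± 0.24 in medulla at 24 h (limma adjusted p = 0.0157) and 0.77 ± 0.24 in cortex at 24 h (limma adjusted p = 0.0224), and the cortex call was lost without the 2 cortex arrays.

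The other assembly factors that rose did so by less. Ndufaf7, a methyltransferase acting on complex I, read 8.03, 8.51 and 8.74 in medulla at 24 h, against 7.93, 7.92 and 7.81 in sham medulla (difference 0.54 ± 0.14, limma adjusted p = 0.00681), and differed by 0.45 at 6 h (limma adjusted p = 0.0194). Ndufaf1 was higher in cortex by 0.46 at 6 h and 0.47 at 24 h (limma adjusted p = 0.039 and 0.0285). Ndufaf3 rose in medulla at 6 h by 0.63 and Ndufaf4 in cortex at 6 h by 0.68 (limma adjusted p = 0.0494 and 0.0443). Cox7a2l fell in the cortex. It read 10.80, 9.65 and 10.56 at 6 h, against 10.81, 11.18 and 11.35 in sham cortex, with differences of -0.77 ± 0.27 at 6 h and -0.80 ± 0.27 at 24 h (limma adjusted p = 0.0477 and 0.032).

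Of the 33 calls against sham, 5 held under every alternative: Ndufb8 at 24 h in both regions, and Sdha, Ndufv1 and Ndufaf5 in medulla at 6 h. The other 28 were lost under at least 1 alternative, and 0 reversed. An offset of 50 ended the calls of Ndufb7 (cortex 6 h), Ndufb11 and Atp5pd (cortex 24 h). It also ended those of Atp5pd (medulla 6 h) and Cox8b (medulla 24 h). No background correction ended the calls of Atp5mc3 (cortex 24 h) and Cox8b (medulla 24 h). The authors' series values ended these and Ndufb7 (cortex 6 h) and Atp5pd (cortex 24 h). The strict filter ended that of Ndufaf1 (cortex 6 h). Leaving out cortex 6 h array 1 ended the calls of Ndufaf1 and Ndufb7 (limma adjusted p = 0.135 to 0.186). Leaving out cortex 6 h array 2 ended the calls of Cox7a2l, Ndufaf1, Ndufaf4 and Ndufb7 (limma adjusted p = 0.121 to 0.321). Leaving out cortex 6 h array 3 ended the call of Ndufaf4 (limma adjusted p = 0.117). Leaving out cortex 24 h array 1 ended the calls of Atp5mc1, Atp5mc3, Atp5pd, Cox6a2, Cox7a2l and Ndufb11 (limma adjusted p = 0.0514 to 0.11). Leaving out cortex 24 h array 2 ended the calls of Atp5mc1, Atp5mc3, Atp5pd, Cox7a2l, Ndufaf1, Ndufaf5, Ndufb11 and Ndufb7 (limma adjusted p = 0.0508 to 0.154). Leaving out cortex 24 h array 3 ended the calls of Atp5mc3, Atp5pd, Ndufaf1, Ndufaf5, Ndufb11 and Sdha (limma adjusted p = 0.068 to 0.0969). Leaving out sham cortex array 1 ended the calls of Cox7a2l, Ndufaf1, Ndufaf4 and Ndufb7 at 6 h and of Atp5mc1, Atp5mc3, Atp5pd, Ndufaf1, Ndufaf5, Ndufb7 and Sdha at 24 h (limma adjusted p = 0.0509 to 0.308). Leaving out sham cortex array 2 ended the calls of Cox7a2l, Ndufaf1 and Ndufaf4 at 6 h and of Cox7a2l and Ndufb11 at 24 h (limma adjusted p = 0.0646 to 0.195). Leaving out sham cortex array 3 ended the calls of Cox7a2l, Ndufaf1 and Ndufaf4 at 6 h and of Atp5mc3, Cox7a2l, Ndufaf1 and Ndufb11 at 24 h (limma adjusted p = 0.0894 to 0.158). Leaving out medulla 6 h array 1 ended the calls of Atp5pd, Cox8b and Ndufaf3 (limma adjusted p = 0.0631 to 0.114). Leaving out medulla 6 h array 2 ended the calls of Atp5pd, Cox8b and Ndufaf3 (limma adjusted p = 0.0584 to 0.15). Leaving out medulla 6 h array 3 ended the calls of Atp5pd, Cox8b, Ndufaf7 and Ndufb8 (limma adjusted p = 0.0642 to 0.149). Leaving out medulla 24 h array 1 ended the call of Cox8b (limma adjusted p = 0.0744). Leaving out medulla 24 h array 2 ended the calls of Cox8b, Ndufb6 and Uqcrfs1 (limma adjusted p = 0.0694 to 0.0971). Leaving out medulla 24 h array 3 ended the calls of Cox8b, Ndufaf5, Ndufaf7, Ndufb6, Ndufv1, Sdha and Uqcrfs1 (limma adjusted p = 0.0542 to 0.124). Leaving out medulla 120 h array 2 ended the call of Uqcrfs1 (limma adjusted p = 0.113). Leaving out medulla 120 h array 3 ended the call of Uqcrfs1 (limma adjusted p = 0.0638). Leaving out sham medulla array 1 ended the calls of Atp5pd, Ndufaf3 and Ndufb8 at 6 h and of Cox8b and Ndufaf5 at 24 h (limma adjusted p = 0.0525 to 0.107). Leaving out sham medulla array 2 ended the calls of Ndufaf3 and Ndufb8 at 6 h and of Ndufb6 and Uqcrfs1 at 24 h and of Uqcrfs1 at 120 h (limma adjusted p = 0.058 to 0.0843). Leaving out sham medulla array 3 ended the calls of Atp5pd, Cox8b, Ndufaf3, Ndufaf7 and Ndufb8 at 6 h and of Cox8b and Ndufaf5 at 24 h and of Uqcrfs1 at 120 h (limma adjusted p = 0.0515 to 0.362).

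The regions were compared next, in sham rats and in their responses. In sham medulla 48 of 58 subunits lay above sham cortex, with a median difference of 0.28, and 9 of 9 complex IV subunits and 24 of 28 complex I subunits were among them. None of the 68 members was called by limma, while 1.39% of all probes were and 9 members had an unadjusted p under 0.05. Without both named cortex arrays, of which sham cortex array 1 enters this comparison, the median was 0.03 and 32 of 58 lay above. For the medulla response minus the cortex response, 0 members were called at 6, 24 or 120 h, against 0.202%, 0.0556% and 0.0139% of all probes, and 3, 3 and 1 members had an unadjusted p under 0.05. For Ndufb8 at 24 h this difference was -0.03 with a 95% interval of -0.80 to 0.75. So the regions were not shown to differ for any member. The 2 responses share no arrays but may share rats, and the tests at the 3 times share the sham arrays.

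Recovery was tested as 120 h against 24 h of the same region. By limma 0 members were called in the cortex (2.34% of all probes were, 7 members at an unadjusted p under 0.05) and 0 in the medulla (3.91% of all probes, 8 members). Ndufb8 came nearest of those described: cortex read 11.59, 11.46 and 11.35 at 120 h, against 10.34, 10.54 and 10.63 at 24 h, without overlap, a difference of 0.97 with an adjusted p of 0.0563. It was called without the 2 cortex arrays (adjusted p = 0.02). Sdha differed by 0.36 in the cortex and 0.37 in the medulla in the same comparison, neither called.

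The other genes of oxidative metabolism give the setting of these values, from lists that were chosen with earlier results of these data known. Of 15 probes for the tricarboxylic acid cycle and its entry, 0 rose and 3, 6 and 0 fell in the cortex at 6, 24 and 120 h, and 0 rose and 6, 8 and 2 fell in the medulla. Of all probes, 10.8%, 13.6% and 3.20% were called lower in the cortex and 16.6%, 15.5% and 6.88% in the medulla. The list's median difference in the medulla at 24 h was -0.58, against 0.03 for all probes. Idh2, the mitochondrial NADP-dependent isocitrate dehydrogenase, differed from sham by -1.83 ± 0.30 in the cortex at 24 h (limma adjusted p = 0.000243). Pc, pyruvate carboxylase, differed by -2.18 ± 0.35 in the medulla at 24 h (limma adjusted p = 0.000212). Cs, citrate synthase, fell by 1.23 in the cortex and by 0.85 in the medulla at 24 h (limma adjusted p = 0.00188 and 0.0173).

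Genes that feed electrons to the chain were called in both directions. Etfdh, which passes electrons from fatty acid oxidation to ubiquinone, differed by -0.93 in the cortex and -0.92 in the medulla at 24 h (limma adjusted p = 0.00285 and 0.00276). Of the 19 probes for electron carriers and entry, 2 were called higher and 3 lower in the cortex at 24 h, where 12.6% and 13.6% of all probes were. In the medulla 2 were higher and 4 lower, against 17.2% and 15.5% of all probes. Nnt, the proton-driven transhydrogenase, differed by -0.89 in the cortex at 24 h (limma adjusted p = 0.02), and Ucp2, a mitochondrial carrier, by 1.70 in the medulla (limma adjusted p = 0.000345). Of 10 probes for uncoupling, inhibition and nucleotide exchange, 1 was called higher and 2 lower in each region at 24 h. These counts are near the shares of all probes just given.

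Regulators of nuclear genes for mitochondria moved in part. Of 17 probes, 1 was called higher and 5 lower in the cortex at 24 h, and 0 higher and 7 lower in the medulla. The shares of all probes were 12.6% higher and 13.6% lower in the cortex, and 17.2% and 15.5% in the medulla. Esrrg, an estrogen-related receptor, differed by -1.84 ± 0.39 in the cortex and -1.38 ± 0.39 in the medulla (limma adjusted p = 0.00186 and 0.0113). Gabpa differed by -0.60 and -0.60 (limma adjusted p = 0.029 and 0.0236), and Yy1 by -1.61 and -0.997 (limma adjusted p = 0.00079 and 0.0175). Ppargc1a, the coactivator PGC-1 alpha, differed by -0.78 in the cortex (adjusted p = 0.182) and -0.09 in the medulla, and was not called, nor were Nrf1 and Tfam.

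Assembly factors as a whole list, 32 probes with the 10 above, had 8 called higher and 3 lower in the medulla at 6 h, against 17.3% and 16.6% of all probes. In the cortex at 24 h, 5 were higher and 5 lower, against 12.6% and 13.6% of all probes. With the 2 cortex arrays left out, the cortex counts at 24 h were 0 higher and 4 lower, against 9.39% and 11.1% of all probes. Tmem70, which acts in ATP synthase assembly, fell in both regions at 6 and 24 h, by 0.83 in the medulla at 24 h (limma adjusted p = 0.000474).

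Markers of cell types moved with injury as well. Of 14 proximal tubule probes, 12, 13 and 5 fell in the medulla at 6, 24 and 120 h, with medians of -2.89, -3.64 and -1.62, and 3, 2 and 0 fell in the cortex. Of all probes, 16.6%, 15.5% and 6.88% were called lower in the medulla and 10.8%, 13.6% and 3.20% in the cortex. The summed intensity of the proximal tubule markers in the medulla was 11757 to 48342 at 24 h, against 78243 to 153761 in sham medulla. At 24 h neither probe of Slc5a12 was well above background on any medulla array. Of 7 macrophage probes, 7, 7 and 6 rose in the medulla and 4, 5 and 4 in the cortex, and their sum in the medulla at 24 h was 6844 to 11328, against 2357 to 2970 in sham medulla. The shares of all probes called higher were 17.3%, 17.2% and 7.69% in the medulla and 8.87%, 12.6% and 2.45% in the cortex. The proximal tubule median was nearer sham at 120 h than at 24 h (difference 120 h minus 24 h of 1.35, with 4 probes called higher), while the subunit median for the same comparison was -0.04. Of 5 distal tubule probes, 3 fell and 0 rose in the medulla at each time, with medians of -2.57, -2.56 and -2.14. In the cortex 0 of them fell and 0, 1 and 0 rose. Their sum was 1174 to 7045 in sham medulla and 246 to 565 in medulla at 24 h, against 16893 to 20890 in sham cortex. Of 9 collecting duct probes, 2, 3 and 3 rose and 1, 1 and 0 fell in the medulla. The part of these lists, or of the amount of cortex in the medulla samples, in the subunit differences was not tested.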

How the data were processed

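RNA from 24 kidney samples was measured on Illumina bead arrays, 3 per group. Trizol extraction, a clean-up and DNase treatment came before amplification to biotin-labelled cRNA, per the labels. The authors deposited a non-normalized intensity per probe and array, between 28.5 and 36007.6. The deposited detection value is a fraction per probe that rises with intensity (Spearman correlation 0.921 across probes), so 1 minus it was taken as the detection p. The authors also deposited log2 series values, each correlating at 0.990 or more with its own array. How their background was treated is unknown here, so they served as an alternative.

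Intensities were corrected, quantile normalized and put on a log2 scale with neqc (offset 16) in limma 3.58.1 (R 4.3.3). A probe entered the fit if 3 or more arrays gave it a detection p under 0.05. 1 model with 8 group means was fitted over 24 arrays with lmFit and eBayes, and p-values were adjusted by Benjamini-Hochberg within each comparison. Symbols came from the platform annotation: 8730 probes had none, and 0 had several. No 2 arrays were identical. Array number limits the precision. The members and gene lists were chosen with earlier results of these data known. Every member could be named. In each comparison the called members with the largest changes and arrays that did not overlap came first. Other background corrections, scalings and filters, a block for replicate number and each array left out in turn were tried. The replicate numbers were not taken to pair samples: in 8 of 30 same-number pairs the correlation of deviations was over 0.1 (range -0.47 to 0.40). The 30 include pairs of an injured group with sham, which cannot share a rat. The exception was medulla against cortex at 24 h, where all 3 pairs were over 0.1, while 0 of 3 were in sham, at 6 h or at 120 h. Whether cortex and medulla arrays of the same number came from the same rat is not known here. The fit was run on simulated data with independent noise for each probe and array. That simulation holds no shift of a gene group on single arrays, so it does not bear on the shifts described above.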

Additional observations from a re-analysis of the deposited data

How the results depend on the processing

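Counts of members called changed by over 1.5 times as follows, and the cause was not tested. Median scaling gave 0 higher in cortex at 6 h, 4 lower in medulla at 24 h and 1 lower in cortex at 120 h against 24 h. Without a filter on dim probes, cortex had 1 higher and 0 lower at 6 h and 4 higher and 2 lower at 24 h, and medulla had 2 higher at 6 h. The authors' series values gave 2 lower in cortex at 6 h, and the strict filter 2 lower in medulla at 120 h. With a replicate block, medulla had 2 higher at 6 h and 2 lower at 120 h, and the response difference at 24 h had 38 called probes against 8, with 0 members in either. The block ended the calls of Cox7a2l in cortex at 6 h and Ndufb11 and Atp5pd in cortex at 24 h. It also ended those of Ndufaf3 and Atp5pd in medulla at 6 h and Cox8b in medulla at 24 h. Leaving out sham cortex array 1 and cortex 6 h array 3 together was chosen after seeing the members on these arrays, so its counts are no independent support. It gave 4 lower in cortex at 6 h and 2 higher and 9 lower in cortex at 24 h. In medulla it gave 7 higher and 7 lower at 6 h, 4 higher and 11 lower at 24 h and 3 lower at 120 h. For 120 h against 24 h it gave 1 higher in cortex and 1 lower in medulla. Of all probes in that fit, 10.6% were called lower in cortex at 6 h, and 9.39% higher and 11.1% lower at 24 h. In medulla 18.8% were called higher and 18.0% lower at 6 h, 18.6% and 17.3% at 24 h, and 8.32% lower at 120 h. For 120 h against 24 h, 2.35% were called higher in cortex and 3.04% lower in medulla. With 1 array left out in turn, cortex ranged from 0 to 9 higher and 0 to 6 lower at 6 h and from 1 to 8 higher and 2 to 5 lower at 24 h. Medulla ranged from 1 to 4 higher and 2 to 5 lower at 6 h, from 0 to 2 higher and 2 to 8 lower at 24 h, and from 0 to 1 lower at 120 h. Sham medulla minus sham cortex, the response difference at 24 h and cortex 120 h against 24 h each ranged from 0 to 1 higher, and medulla 120 h against 24 h from 0 to 1 lower. Median scaling ended the calls of Cox7a2l, Ndufaf1, Ndufaf4 and Ndufb7 in cortex at 6 h and Cox7a2l, Ndufb11 and Atp5mc1 at 24 h. In medulla it ended those of Ndufb8 at 6 h, Ndufb6, Ndufv1, Atp5f1d and Uqcrfs1 at 24 h and Uqcrfs1 at 120 h. No filter ended those of Cox7a2l, Ndufaf4 and Ndufb7 in cortex at 6 h and Cox7a2l, Ndufb11, Atp5mc1, Atp5mc3 and Atp5pd at 24 h. In medulla it ended Cox8b, Ndufaf3 and Atp5pd at 6 h and Cox8b at 24 h. Of the 33 calls in single members, 0 reversed under any alternative run.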

Other observations

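Mitochondrial ribosomal proteins, which translate the chain subunits encoded in mitochondrial DNA, were mostly called in 1 direction. Of 57 probes, 18 were called higher and 1 lower in medulla at 6 h, 9 higher and 1 lower at 24 h, and 0 at 120 h. Of all probes, 17.3% were called higher and 16.6% lower there at 6 h, 17.2% and 15.5% at 24 h, and 7.69% and 6.88% at 120 h. In cortex 10 were called higher and 0 lower at 6 h, and 14 higher and 0 lower at 24 h. The shares of all probes were 8.87% and 10.8% at 6 h, and 12.6% and 13.6% at 24 h. Without the 2 cortex arrays that lay low for these probes, the cortex counts were 13 higher at 6 h and 8 higher and 1 lower at 24 h. In that fit 7.82% of all probes were called higher at 6 h, and 9.39% higher and 11.1% lower at 24 h. The list's median difference in cortex at 24 h was 0.38 with all arrays and 0.11 without both.

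Of 18 probes for mitochondrial fusion, fission and removal, 2 were called higher and 7 lower in medulla at 6 h, and 1 higher and 5 lower at 24 h. Of all probes, 17.3% were called higher and 16.6% lower there at 6 h, and 17.2% and 15.5% at 24 h. In cortex 1 was called higher and 3 lower at 6 h, and 0 higher and 6 lower at 24 h. The shares of all probes were 8.87% and 10.8% at 6 h, and 12.6% and 13.6% at 24 h.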
